A study of Mus musculus with 9 samples.

Results

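The 10 genes described here are the fibroblast growth factor (FGF) ligands Fgf1, Fgf2, Fgf7, Fgf9 and Fgf10 and the receptors Fgfr1, Fgfr2, Fgfr3, Fgfr4 and Fgfrl1. They were picked by name, 5 ligands and 5 receptors, out of 48733 rows of gene counts, and their values were read from bulk RNA-seq of the adult male mouse submandibular gland (SMG). Of these, 9 are also present in the authors' normalized table of 17562 genes, which leaves out Fgfr4. A filter on low counts was passed by 7 of the 10, and the others, Fgf2, Fgfr3 and Fgfr4, are given by their counts.

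The series compared 4 wildtype (WT) with 5 Hs3st3a1;Hs3st3b1 double knockout (DKO) male glands, 9 libraries in all. Both groups were on a C57BL/6 background, and the study describes the WT animals as littermates. The DKO mice carry a zinc finger nuclease deletion in exon 1 of Hs3st3a1 together with an Hs3st3b1 allele that holds a LacZ cassette. Both are constitutive alleles, present in every cell of the mouse, and more than one founder line was kept. Which founder gave each animal, and the age of each animal, are not given in the sources used here. The labels name no treatment for either group, and each title carries a gland number of its own.

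FGFs are secreted ligands that bind receptor tyrosine kinases, and heparan sulfate (HS) takes part in the complex of ligand and receptor. The 2 deleted genes encode 3-O-sulfotransferases that add sulfate to HS, which is why the ligands and receptors are of interest in these glands. In the developing SMG, Fgf7 and Fgf10 are made by the mesenchyme and signal to the epithelium through the epithelial splice form of Fgfr2, and Fgf10 with Fgfr2 is needed for the gland to form. For glands after birth, the study names myoepithelial cells as a source of Fgf7, and it describes Fgf9 as expressed in them. Fgf9 acts mainly through the mesenchymal splice forms of the receptors and Fgfr3, and Fgf1 can bind every FGF receptor with a kinase. Fgfrl1 lacks the intracellular kinase domain. Counts per gene do not separate the splice forms of a receptor.

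The libraries held 20653492 to 37870519 counts in WT and 17053747 to 34683690 in DKO. Both deleted genes were lower in the DKO libraries, but only Hs3st3a1 was at 0. Hs3st3a1 had 7, 3, 14 and 9 counts in WT replicates 1 to 4 and 0 counts in each of the 5 DKO libraries. Hs3st3b1 had 67 to 216 counts in WT and 7 to 45 in DKO, a log2 fold change of -2.11 ± 0.34 (SE) in edgeR's quasi-likelihood test with a Benjamini-Hochberg adjusted p = 0.0478. Reads of Hs3st3b1 thus remained in DKO, whereas the study reports that qPCR found neither gene expressed in adult DKO glands. Where in the gene these reads lie was not tested. DKO replicate 1 stood apart: the summed level of 9 parotid and sublingual gland markers was 8175 TMM CPM in it and 25.5 to 203 in the other libraries, with 253648 counts of the parotid secretory protein gene Bpifa2 alone. TMM CPM is the count of a gene as a proportion of its library's total over the genes that passed the filter (CPM), after edgeR's TMM scaling. Values were computed here from the raw counts. Acinar markers, which define the gland, were high as a sum in every library, at 241509 to 650353 TMM CPM over 11 genes. This does not hold for each gene: Smr3a, 1 of the 11, had 7191 of its 7195 counts in DKO replicate 1, the library that stood apart. The 20 most abundant genes held 52.9% to 58.7% of the counts in WT and 59.4% to 70.3% in DKO.

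To show the promoters of a ligand that was lower in DKO glands and of one that was not called different, the 250 bases upstream of the start of the coding transcript of Fgf9 and of Fgf10 are given as the RefSeq table for GRCm38.p6 has them. The Fgf9 window is chr14:58072436-58072685 on the plus strand, and the Fgf10 window is chr13:118714449-118714698 on the plus strand. Capitals mark every match, on either strand, to GGGCGG, known as the GC box, to TATAAA, found in the TATA box, to CCAAT, to CCGGAA, found at ETS sites, or to TGACTCA, found at AP-1 sites.
Fgf9: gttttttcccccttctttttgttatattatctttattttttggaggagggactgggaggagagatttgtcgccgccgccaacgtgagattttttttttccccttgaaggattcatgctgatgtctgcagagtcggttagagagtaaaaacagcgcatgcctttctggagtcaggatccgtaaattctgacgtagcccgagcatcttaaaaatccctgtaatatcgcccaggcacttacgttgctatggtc
Fgf10: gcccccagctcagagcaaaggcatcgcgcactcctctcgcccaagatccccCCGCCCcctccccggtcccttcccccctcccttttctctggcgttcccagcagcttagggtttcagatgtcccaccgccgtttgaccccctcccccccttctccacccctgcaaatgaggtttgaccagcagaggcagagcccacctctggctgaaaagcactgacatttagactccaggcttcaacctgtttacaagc
The Fgf9 window held none of the 5 motifs and was 44.8% G and C. The Fgf10 window was 61.2% G and C and held 1 GC box, on the minus strand, with its first base at position -199 from the start. Over all 32851 windows of this length in the table, the median was 52.4% G and C, and the motifs were found in 32.7% (GC box), 12.4% (TATA box), 33.8% (CCAAT), 12.03% (ETS site) and 4.46% (AP-1 site). Absence of a match says only that these letters are not in this window. Of the 10 genes, 8 had an entry in the table.

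Fgf1 and Fgf9 were the ligands with the lowest DKO levels relative to WT, and Fgf9 was the single gene of the 7 tested that passed the test in edgeR. Fgf9 fell by 1.47 on the log2 scale, Fgf1 had a log2 fold change of -1.09, and the ligands Fgf7 and Fgf10 and the receptors Fgfr1, Fgfr2 and Fgfrl1 all had log2 fold changes between -0.13 and 0.31. In edgeR, 87 of the 13842 genes tested (0.629%) passed an adjusted p of 0.05, with 64 of them (0.462%) lower in DKO. By DESeq2, the test named in the study's methods, 617 of 13563 genes (4.55%) passed, 372 of them (2.74%) lower, and the 7 tested genes included 2 that passed, Fgf9 and Fgf1, both lower.

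Fgf9 (ENSMUSG00000021974, GRCm38 chr14:58070547-58112720, plus strand) had levels of 10.2, 6.003, 13.3 and 10.6 TMM CPM in WT replicates 1 to 4. In DKO replicates 1 to 5 it had 3.66, 2.59, 2.47, 5.42 and 4.06 TMM CPM. The groups did not overlap: the lowest WT library, replicate 2, lay just above the highest DKO library, replicate 4. Among all tested genes, 3.51% had every DKO library below every WT library. The underlying counts were 157 to 604 in WT and 54 to 137 in DKO. The mean was 10.03 ± 3.03 (SD, n = 4) in WT and 3.64 ± 1.20 (SD, n = 5) in DKO.

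The log2 fold change of Fgf9 was -1.47 ± 0.26 (SE), 2.76-fold lower in DKO, with an adjusted p = 0.0478 in edgeR and 5.3e-05 in DESeq2. It ranked 35 by p among the tested genes. The edgeR call lay close to its threshold: the adjusted p was 0.0514 with upper-quartile factors, 0.0508 with library sizes taken without the 20 most abundant genes, and 0.0529 in the authors' filtered counts, so that each of these ended it. An exact two-sided permutation test gave p = 0.00794, the smallest this design can give. The edgeR call rested on most libraries: it held without WT replicate 2 (adjusted p = 0.0162) or DKO replicate 4 (0.0167), and it was lost without WT replicate 1 (0.198), 3 (0.171) or 4 (0.102) and without DKO replicate 1 (0.0823), 2 (0.119), 3 (0.0530) or 5 (0.0969). The log2 fold change stayed between -1.66 and -1.29 over these 9 fits, and DESeq2, run the same way after the data were seen, called Fgf9 in each of its 9, with adjusted p from 1.8e-07 to 0.00376.

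Fgf1 (ENSMUSG00000036585, chr18:38838673-38929472, minus strand) was the most abundant member, with 360 to 3199 counts per library. Its levels were 77.7, 31.9, 70.7 and 54.2 TMM CPM in WT replicates 1 to 4, and 26.1, 23.4, 22.7, 39.3 and 26.1 in DKO replicates 1 to 5. The groups overlapped through the same libraries as came nearest for Fgf9, since WT replicate 2 lay below DKO replicate 4, and the other 4 DKO libraries lay below every WT library. The mean was 58.6 ± 20.4 (SD, n = 4) in WT and 27.5 ± 6.78 (SD, n = 5) in DKO.

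The log2 fold change of Fgf1 was -1.09 ± 0.24 (SE), with an adjusted p = 0.0570 in edgeR, which missed the threshold, and 0.00132 in DESeq2. It ranked 170 by p. The exact two-sided permutation test gave p = 0.0238, and p = 0.0571 without DKO replicate 1, 2, 3 or 5, each taken out alone. Without WT replicate 2 or DKO replicate 4 the edgeR adjusted p was 0.0158 and 0.0216. In these bulk samples, fewer cells that express a gene and less RNA per cell cannot be told apart, for Fgf9, Fgf1 and every gene below.

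Fgf10 (ENSMUSG00000021732, chr13:118669791-118792115, plus strand), the ligand that drives branching of the gland, had levels of 3.88, 2.91, 2.54 and 2.58 TMM CPM in WT. In DKO it had 2.58, 4.32, 5.41, 3.32 and 2.32 TMM CPM, so that the DKO libraries spread to both sides of the WT range. DKO over WT, its log2 fold change was 0.28 ± 0.26 (SE, adjusted p = 0.696 in edgeR), and the exact permutation p was 0.429. Fgf7 (ENSMUSG00000027208, chr2:126034658-126091185, plus strand), also known as keratinocyte growth factor, had levels of 4.46, 2.98, 2.25 and 1.85 TMM CPM in WT. In DKO it had 2.99, 2.88, 2.66, 4.11 and 1.09 TMM CPM, with DKO replicate 5 the lowest library and WT replicate 1 the highest. For Fgf7 the log2 fold change was -0.04 ± 0.34 (SE, adjusted p = 0.973 in edgeR), and its sign turned under some settings.

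Fgf2 (ENSMUSG00000037225, chr3:37348346-37410108, plus strand), known as basic FGF, was near the limit of detection. It had 8, 7, 22 and 7 counts in WT and 17, 5, 7, 11 and 0 counts in DKO, and the groups overlapped. In a fit of the authors' filtered counts with no further filter, its log2 fold change was -0.21 ± 0.56 (SE, adjusted p = 0.924 in edgeR), and a difference was not detectable at this depth. Of its exons, 640 bases are shared with Nudt6 on the opposite strand and 255 with Gm43439 on the same strand, and the libraries were unstranded, so reads there cannot be assigned to Fgf2.

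**Figure D1:**
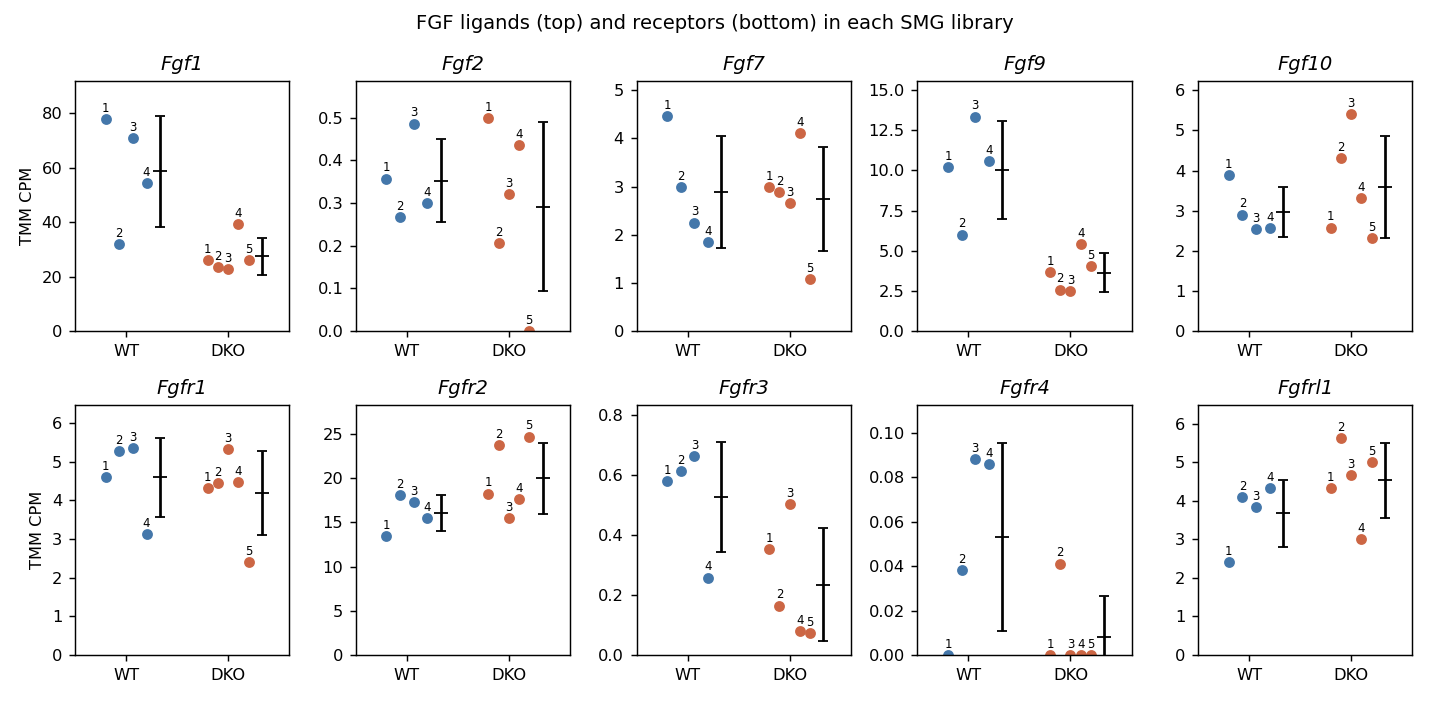
Levels of the 5 ligands (top) and 5 receptors (bottom) in TMM CPM (vertical axis) in each WT (blue) and DKO (orange) library, numbered by replicate; black bars give the mean and SD of each group, and the lower end of the Fgfr4 DKO bar runs below 0 and is not drawn. Fgf9 is the one gene whose groups do not overlap, with WT at 6.003 to 13.3 and DKO at 2.47 to 5.42 TMM CPM.

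Of the 3 receptors tested, 0 passed in edgeR or DESeq2, and 0 had an unadjusted edgeR p under 0.05. Fgfr2 (ENSMUSG00000030849, chr7:130162451-133123350, minus strand), the receptor for Fgf7 and Fgf10 in the gland's epithelium, had levels of 13.4, 18.1, 17.3 and 15.5 TMM CPM in WT. In DKO it had 18.3, 23.8, 15.5, 17.7 and 24.7 TMM CPM. The 3 DKO replicates 1, 2 and 5 lay above every WT library, and the groups overlapped. The log2 fold change was 0.31 ± 0.16 (SE), with an adjusted p = 0.40 in edgeR and an exact permutation p of 0.143.

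Fgfrl1 (ENSMUSG00000008090, chr5:108692382-108706924, plus strand) had levels of 2.41, 4.09, 3.84 and 4.34 TMM CPM in WT. In DKO it had 4.34, 5.63, 4.67, 3.00 and 5.00 TMM CPM. Here 4 DKO libraries lay above the WT maximum, by less than 0.01 TMM CPM in the case of replicate 1, and DKO replicate 4 lay inside the WT range. Its log2 fold change was 0.30 ± 0.22 (SE), with an adjusted p = 0.602 in edgeR and an exact permutation p of 0.262. With 1 library left out, the permutation p was 0.0286 without DKO replicate 4 and 0.214 to 0.589 without any other.

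Fgfr1 (ENSMUSG00000031565, chr8:25513654-25575718, plus strand), a receptor found widely in mesenchyme and epithelium, had levels of 4.60, 5.28, 5.35 and 3.13 TMM CPM in WT. In DKO it had 4.31, 4.44, 5.32, 4.47 and 2.39 TMM CPM, and DKO replicate 5 was the only library below the WT range. Its log2 fold change was -0.13 ± 0.23 (SE, adjusted p = 0.861 in edgeR), and its sign turned without that library. Exons of Fgfr1 and Fgf10 overlap antisense genes on the opposite strand by 164 and 123 bases.

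Fgfr3 (ENSMUSG00000054252, chr5:33721674-33737068, plus strand) had 13, 16, 30 and 6 counts in WT and 12, 4, 11, 2 and 1 counts in DKO. Its levels were 0.258 to 0.663 TMM CPM in WT and 0.0725 to 0.504 in DKO, and 3 DKO libraries lay below every WT library. The exact permutation p was 0.0714. With 1 library left out, it was 0.0357 without WT replicate 4 and 0.0571 to 0.179 without any other. In the fit of the authors' filtered counts the log2 fold change was -1.12 ± 0.53 (SE, adjusted p = 0.402 in edgeR). It shares 998 exonic bases with the unclassified gene G630022F23Rik on the opposite strand. Fgfr4 (ENSMUSG00000005320, chr13:55152640-55168759, plus strand) had 0, 1, 4 and 2 counts in WT and 0, 1, 0, 0 and 0 counts in DKO. At 8 counts over 9 libraries no fold is given for it.

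**Figure D2:**
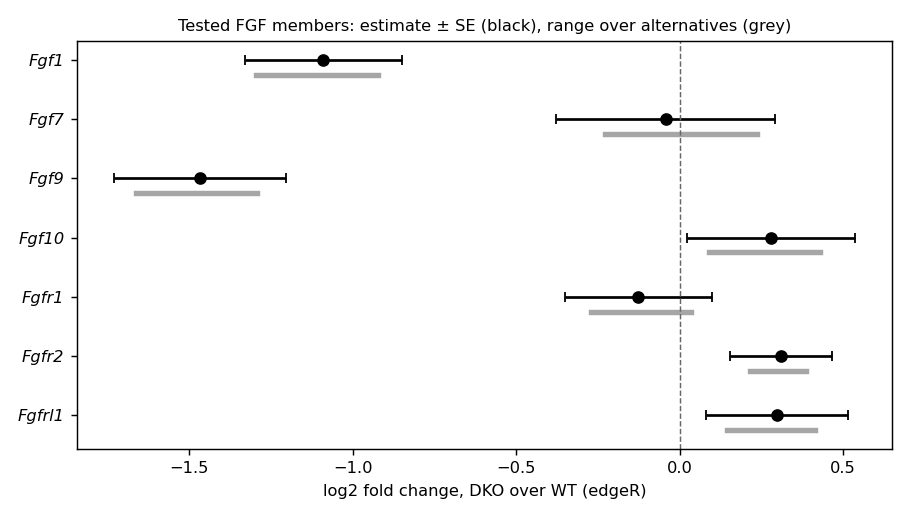
Log2 fold change of DKO over WT (horizontal axis) for the 7 members tested, with the edgeR estimate and its SE in black and, below it in grey, the range of the estimate over the alternative fits. Fgf9 and Fgf1 lie below -0.9 in every fit, and the grey bars of Fgf7 and Fgfr1 cross 0.

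To order the members by abundance, levels were divided by the length of the exons of each gene in GENCODE M21. Per kilobase, Fgf1 was the highest of the ligands in both groups, at 10.7 ± 3.73 TMM CPM per kb (SD, n = 4) in WT and 5.04 ± 1.24 (SD, n = 5) in DKO. In WT, Fgf9 came next at 2.16 ± 0.65 TMM CPM per kb, then Fgf7 at 0.889 ± 0.355, Fgf10 at 0.647 ± 0.136 and Fgf2 at 0.0520 ± 0.0142. The libraries of Fgf1 lay above those of Fgf9, while the ranges of Fgf9 and Fgf7 and of Fgf7 and Fgf10 overlapped. In DKO, Fgf7 (0.845 ± 0.334 TMM CPM per kb), Fgf9 (0.783 ± 0.259) and Fgf10 (0.780 ± 0.278) lay within 1.08-fold of their neighbours in the order, and each overlapped the next. Fgf9 thus took the second place among the ligands in WT, where it was 2.43 times the mean level per kb of Fgf7, and lay level with Fgf7 and Fgf10 in DKO.

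The 5 ligands together summed to 14.5 ± 4.44 TMM CPM per kb in WT and 7.49 ± 1.65 in DKO. Fgf1 made up 73.2% ± 4.2 of this sum in WT and 67.1% ± 4.6 in DKO, and Fgf9 made up 15.1% ± 2.4 and 10.4% ± 2.3. The part taken by Fgf10 was 4.79% ± 1.72 in WT and 10.8% ± 4.7 in DKO. These shares are a description of the same levels and were not tested.

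Among the receptors, Fgfr2 and Fgfrl1 were the highest per kilobase. In WT, Fgfr2 had 1.56 ± 0.20 TMM CPM per kb (SD, n = 4), Fgfrl1 had 1.32 ± 0.31, Fgfr1 had 0.465 ± 0.104, Fgfr3 had 0.0738 ± 0.0256 and Fgfr4 had 0.0150 ± 0.0119. The order was the same in DKO, with Fgfr2 at 1.94 ± 0.39 (SD, n = 5) and Fgfrl1 at 1.63 ± 0.35 TMM CPM per kb. The ranges of Fgfr2 and Fgfrl1 overlapped in both groups, and per kilobase of exon Fgfr1 lay below both. The gene model of Fgfr2 includes a read-through transcript that reaches into an exon of Ctbp2, and its exons total 10328 bases against 4429 for its longest transcript. With the longest transcript as the length, Fgfr2 was at 3.63 TMM CPM per kb in WT, 2.31 times Fgfrl1, and their ranges no longer overlapped. With that length the WT ranges of Fgfrl1 (1.03 to 1.86 TMM CPM per kb) and Fgfr1 (0.622 to 1.06) overlapped, and those of the ligands Fgf9 and Fgf7 did not. The 5 receptors summed to 3.43 ± 0.51 TMM CPM per kb of exon in WT and 4.02 ± 0.61 in DKO.

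**Figure D3:**
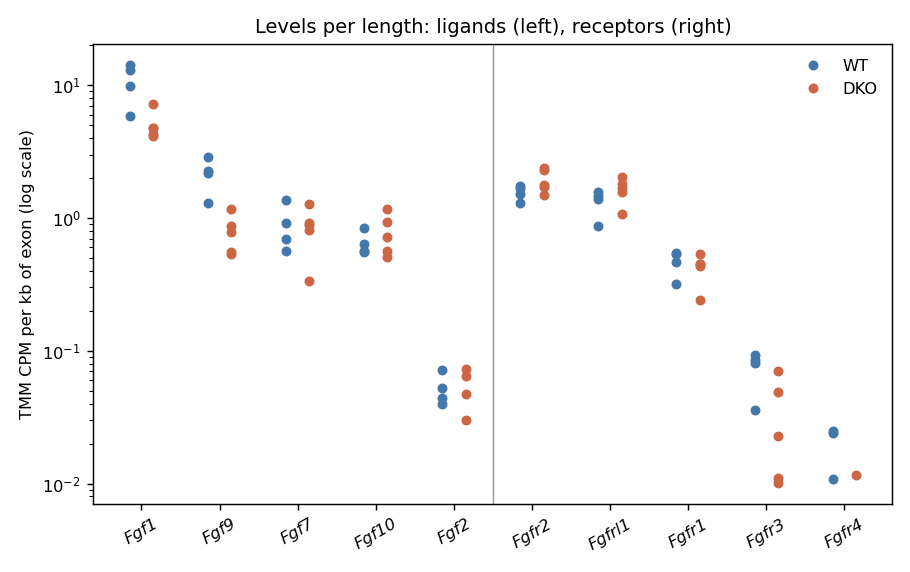
Levels per kilobase of exon (TMM CPM per kb, log scale) of the ligands (left) and receptors (right), ordered by the WT mean, with 1 point per WT (blue) or DKO (orange) library; 6 of the 90 values are 0 and are not drawn. Fgf1 stands above the other ligands in both groups, and the DKO libraries of Fgf9 sit at the level of Fgf7 and Fgf10.

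Markers of the contractile and secretory duct cells moved with Fgf9 and Fgf1. Myoepithelial cells (MECs) wrap the acini and share contractile genes with smooth muscle, and granular ducts are the male-typical secretory ducts of the mouse SMG. Of 12 MEC markers, 11 were tested and all 11 were lower in DKO (median -1.07 on the log2 scale, against 0.01 over all tested genes). In edgeR 6 of them passed, Myh11, Tagln, Mylk, Myl9, Tpm2 and Actg2, and 0.629% of all tested genes did. In DESeq2 9 of them passed, and 4.55% of all genes did. Several of these markers are genes that the study itself picked from these samples, so the list is not independent evidence of its direction. Oxtr, the oxytocin receptor gene of MECs, had at most 4 counts in any library, and Trp63, a transcription factor of basal cells and MECs, had a log2 fold change of -0.12.

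The summed level of the 12 MEC markers was 743 to 1180 TMM CPM in WT and 293 to 661 in DKO. The summed level of 11 granular duct markers was 50260 to 104523 TMM CPM in WT and 17313 to 41734 in DKO, and 10 of the 11 were lower, with a median log2 fold change of -1.77. In edgeR 0 of these 11 passed, with 10 at an unadjusted p under 0.05 and an adjusted p = 0.0574 for the mucin gene Muc13, the lowest of the list, and in DESeq2 9 were called lower. Among all genes, 14.5% had an unadjusted edgeR p under 0.05, and 4.55% were called in DESeq2 (2.74% lower in DKO). Klk1, a tissue kallikrein gene, was called higher there (adjusted p = 0.0378). Several of the granular duct markers are kallikrein genes with near-identical copies, whose reads the counting could divide among them. Acinar markers went the other way, with 10 of 10 tested higher, a median log2 fold change of 0.65, and 5 called in DESeq2 and 0 in edgeR, where 8 had an unadjusted p under 0.05. Smr3a, also on the acinar list, did not pass the filter on low counts and was not tested. Fibroblast markers had a median of -0.57, with 0 of 8 called by edgeR or DESeq2 and 3 at an unadjusted edgeR p under 0.05. Markers of endothelium (median 0.27), mural cells (0.11) and Schwann cells (0.08) had 0 called by either tool and 1 gene each at an unadjusted edgeR p under 0.05. Leukocyte markers had 4 of 4 tested lower (median -0.29), with 0 called by either tool and 0 at an unadjusted edgeR p under 0.05. Of 9 skeletal muscle markers, 3 were tested (median -0.78) and 1 was called lower by both tools, the skeletal actin gene Acta1, at 3.48 TMM CPM on average in WT and 0.287 in DKO without overlap (log2 fold change -3.65 ± 0.51, SE, adjusted p = 0.0385 in edgeR), while Myh1 and Myh4, which encode skeletal myosin heavy chains, had 0 counts in all libraries.

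The libraries at the edge of each group were the same for the markers as for the ligands. WT replicate 2, the WT library with the least Fgf9 and Fgf1, had the lowest WT sum of MEC and of granular duct markers, and DKO replicate 4, with the most Fgf9 and Fgf1 in DKO, had the highest DKO sums. Taken relative to the mean log2(TMM CPM + 1) of the 11 tested MEC markers, Fgf9 was at -2.005 ± 0.26 (SD, n = 4) in WT and -2.21 ± 0.27 (SD, n = 5) in DKO, and Fgf1 was at 0.40 ± 0.32 and 0.42 ± 0.21. The ranges of both groups overlapped for both ligands. Relative to the 11 granular duct markers, Fgf9 was at -7.00 ± 0.24 in WT and -6.69 ± 0.47 in DKO, and Fgf1 at -4.59 ± 0.14 and -4.06 ± 0.55, the latter without overlap. Relative to the 8 fibroblast markers, Fgf9 was at -1.40 ± 0.43 in WT and -2.17 ± 0.60 in DKO. The part of cell makeup in the lower Fgf9 and Fgf1 was not tested.

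**Figure D4:**
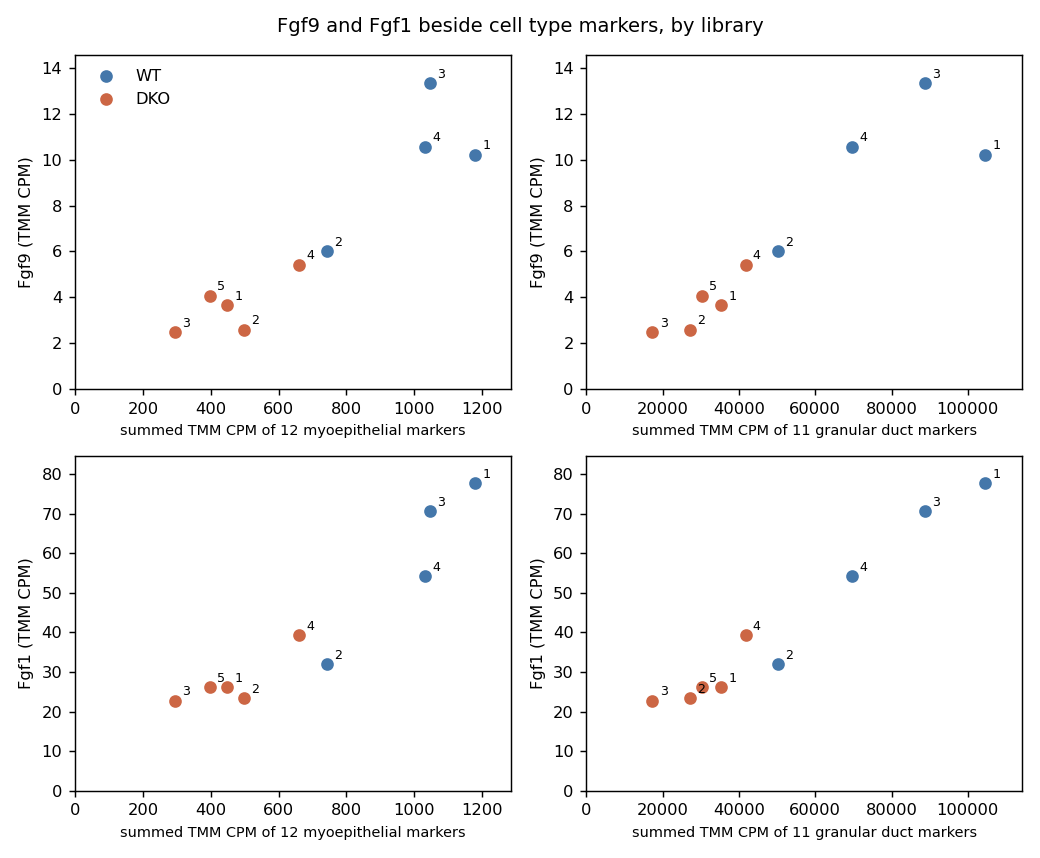
TMM CPM of Fgf9 (top) and Fgf1 (bottom) in each library against the summed TMM CPM of 12 MEC markers (left) and 11 granular duct markers (right), with WT in blue and DKO in orange and numbers for replicates. Along the horizontal axis, WT replicate 2 and DKO replicate 4 lie next to each other in all 4 panels, between the other DKO and the other WT libraries.

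The genes whose levels were most like those of a member over the 9 libraries were found by Pearson's r of log2(TMM CPM + 1) among all tested genes. For Fgf9 these were Capns1, which encodes the small subunit of calpain (r = 0.985), P2ry14, a receptor gene for UDP-sugars (r = 0.985), and Grb14, which encodes an adaptor that binds receptor tyrosine kinases (r = 0.982). For Fgf1 they included Aldh1a1, which encodes a retinaldehyde dehydrogenase (r = 0.988), and the transporter gene Slco3a1 (r = 0.985). With the group means removed, r stayed at 0.923 to 0.947 for the 3 genes named for Fgf9 and was 0.969 for Aldh1a1 and 0.960 for Slco3a1. The log2 fold changes of these genes ran from -0.23 (Capns1) to -1.76 (Slco3a1). For Fgfr2 the nearest genes were Hsf2bp (r = 0.965), Fgr (r = 0.957) and Ddo (r = 0.951). Each r is the highest of many over few libraries that share depth and cell makeup, and is given as a description.

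Beyond the members, 80 genes of the FGF pathway on 6 lists were examined, of which 79 matched a row and 55 were tested. None of the 55 passed in edgeR, where 9 had an unadjusted p under 0.05 (14.5% of all tested genes had). In DESeq2 2 of the 55 passed, and 4.55% of all genes did. Every DKO library lay below every WT library for 2 of the 55, and for 3.51% of all tested genes. The log2 fold changes of the 55 had a median of -0.02, with 28 lower and 27 higher in DKO. Of the other 17 FGF genes, 10 had 0 counts in all libraries, Fgf3, Fgf4, Fgf5, Fgf6, Fgf8, Fgf15, Fgf16, Fgf20, Fgf21 and Fgf23. An observed count of 0 still allows an expected count of up to 3 in a library. Fgf13, whose product stays inside the cell, was the one of the 17 that was tested, with a log2 fold change of -0.24 (adjusted p = 0.850 in edgeR).

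Co-receptors and FGF-binding proteins had 6 of 10 genes tested, from Ncam1, a neural cell adhesion molecule gene that can bind FGF receptors (-0.48 ± 0.16, SE), to Kl, which encodes the co-receptor klotho (0.28 ± 0.33). Adaptors had 12 of 13 tested, from Cbl, a ubiquitin ligase gene (-0.27), to Crk (0.28), both on the log2 scale. Of the 16 kinases and small GTPases of the MAPK and PI3K branches, all 16 were tested, and Hras had the lowest log2 fold change (-0.47 ± 0.14, SE, adjusted p = 0.138 in edgeR). Hras was 6.496 to 8.79 TMM CPM in WT and 4.63 to 6.44 in DKO, without overlap. These 3 lists had medians of -0.07, -0.01 and -0.03, and 0 of their genes were called by edgeR or DESeq2, with 2, 1 and 2 at an unadjusted edgeR p under 0.05.

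The feedback inhibitors, which FGF signaling itself induces in many tissues, had 10 of 12 tested, with a median log2 fold change of 0.04. Dusp4, a MAPK phosphatase gene, had the highest value of the pathway, 1.67 ± 0.48 (SE), with an adjusted p = 0.129 in edgeR and 0.00715 in DESeq2. It was at 0.816 to 2.32 TMM CPM in WT and 2.17 to 10.4 in DKO, so the groups overlapped. Spry4, of the Sprouty family, had the lowest value of this list, -0.23 ± 0.40 (SE). Among the transcription factors and other targets downstream of FGF, 10 of 12 were tested, with a median of -0.06. Jun, a subunit of AP-1, was the lowest, with 11.7 to 15.8 TMM CPM in WT and 6.53 to 10.1 in DKO and no overlap. Its log2 fold change was -0.67 ± 0.16 (SE), with an adjusted p = 0.0665 in edgeR and 0.00626 in DESeq2. Etv5, a factor commonly used as a readout of FGF receptor activity, had the highest value, 0.55 ± 0.47 (SE, adjusted p = 0.663 in edgeR), and Etv4 had at most 18 counts in a library and was not tested.

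**Figure D5:**
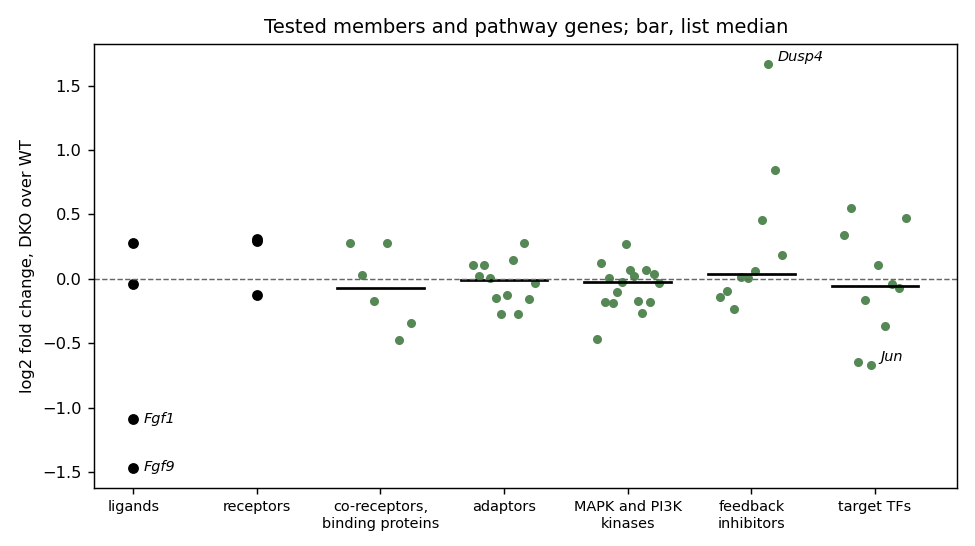
Log2 fold change of DKO over WT (vertical axis, edgeR) of the tested ligands and receptors (black) and of the tested genes of 5 pathway lists (green), with a bar at each list's median. Fgf9 (-1.47) and Fgf1 (-1.09) lie below all pathway genes, Dusp4 (1.67) above, and the list medians lie between -0.07 and 0.04.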

How the data were processed

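Whole SMG RNA was made into unstranded Nextera XT libraries and sequenced on a HiSeq2500. The submitters' processing notes name STAR 2.5.2a, edgeR, limma and DESeq2 and the build GRCm38 (mm10); the counting tool and annotation are not given in the sources used here. The authors deposited raw counts per gene, the same counts filtered on low values, and a normalized signal table, which is those filtered counts divided by 1 factor per library: 158058 of 158058 values (100%) gave whole reads within 0.001, equal to the filtered counts, and edgeR called 13 genes on them. Every per-sample column was used.

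Raw counts were tested with edgeR 4.0.16 in R 4.3.3 (TMM, filterByExpr with a minimum count of 10 and total of 15, quasi-likelihood with the legacy fit, 13842 genes, Benjamini-Hochberg over all, adjusted p under 0.05). The SE is the log2 fold change divided by the root of F. Single members were also compared by exact two-sided permutation of log2(TMM CPM + 1). DESeq2 1.42.0 and limma 3.58.1 were alternatives. Library sizes were summed over the genes that passed the filter. The 24 spike-in and transgene rows, 7.48e-05% of counts, went through the same filter, so any that failed it were left out. The scripts were tested on simulated data. The labels number each gland separately but do not state its litter. The members, gene lists and tests were chosen with earlier results of these data known. Named pathway genes are those called and the highest and lowest of each list; the 3 nearest genes are named for Fgf9 and for the ligand and receptor with the highest level per length. Some genes that this rule names are not reported here.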

Additional observations from a re-analysis of the deposited data

Results flagged for a closer look

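Of 20 sets of values (each member in each group), 2 held a library farther from its neighbours than the Dixon test allows at 95%, and chance alone flags about 1 in 20. Fgf1 in DKO replicate 4 was 39.3 TMM CPM, against 22.7 to 26.1 in the other 4 DKO libraries. That library also had the highest Fgf9 and the highest summed MEC and granular duct markers of the DKO group, and without it the log2 fold change of Fgf1 was -1.26 with an adjusted p = 0.0216 in edgeR. Fgfr4 in DKO replicate 2 was 0.0411 TMM CPM, which is 1 count where the other 4 DKO libraries had 0. With those 4 tied at 0, any count in the remaining library is flagged. This flag was therefore fixed by the ties and cannot be set against the chance rate.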

How the results depend on the processing

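Over all genes, the 87 calls of edgeR became 617 in DESeq2, 347 with no filter on low counts, 148 in limma-voom with quality weights, 13 in the authors' filtered table and in the reads recovered from the normalized table, 5 with upper-quartile factors, 5 with library sizes taken without the 20 most abundant genes, and 0 with the replicate number as a block. Leaving out 1 library gave 0 to 441 calls: 441 without DKO replicate 4, 306 without WT replicate 2, 2 without DKO replicate 3, 1 without DKO replicate 1 and 0 without any other; the cause was not tested. Of the members, 1 was called (Fgf9). There were 2 (with Fgf1) in DESeq2, with no filter, and without WT replicate 2 or DKO replicate 4. There were 0 in the filtered table, in the recovered reads, with upper-quartile factors, without the 20 most abundant genes, under the block and without any other single library, so that leaving out 1 library gave 0 to 2. Fgf9 then had adjusted p-values of 0.0514 (upper-quartile), 0.0508 (without the 20 genes), 0.0529 (filtered table) and 0.0766 (block), and its log2 fold change stayed between -1.66 and -1.29 in all fits. By exact permutation 2 members had an unadjusted p under 0.05, Fgf9 and Fgf1, and 1 to 3 did when 1 library was left out. The share of all genes under this test is not given here. The third member was Fgfr4 without WT replicate 1 (permutation p = 0.0357), Fgfr3 without WT replicate 4 (0.0357) or Fgfrl1 without DKO replicate 4 (0.0286). Fgfr4 had only 0 to 4 counts per library. Pathway genes called went from 0 to 2 in DESeq2, to 1 with no filter, and to 0 or 1 without 1 library. Signs turned for Fgf7 in limma-voom (0.16), under the block (0.17), and without WT replicate 1 (0.24) or DKO replicate 5 (0.14), over a range of -0.23 to 0.24 when 1 library was left out, and for Fgfr1 under the block (0.033) and without DKO replicate 5 (0.0077), over -0.27 to 0.01. With the longest transcript as length, Fgf1 in WT was 14.7 TMM CPM per kb. The fits without a library in DESeq2 and the fit of recovered reads were added after seeing the data. The labels do not say that a replicate number marks a shared litter, batch or day. The correlations of same-numbered WT and DKO deviations were 0.245, 0.369, 0.113 and 0.006, and 2 of 4 WT libraries matched best with their own number. Since not every pair was over 0.1, the numbers were not taken to pair the samples. This check covers same-numbered pairs only, and other groupings of the glands, such as by gland number, were not tested. The loss of calls under the block is given without a reading. Counts of 0 to 30 per library for Fgf2, Fgfr3 and Fgfr4 limit what can be said of them, and counting intervals cover counting error only.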
